A study of Mus musculus with 12 samples.

Results

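The 10 genes described here encode cytokines that T cells secrete or carry on their surface: *Ifng*, *Tnf*, *Il2*, *Il21*, *Il17a*, *Lta*, *Ltb*, *Csf1*, *Csf2*, and *Xcl1*. They were chosen by symbol, and all 10 were found among the 31053 genes of the count matrices. T cells make most of these cytokines after the T cell receptor is engaged, and the subset of T cell decides which of them are made. IFN-γ and TNF act on tumor cells and macrophages, IL-2 and IL-21 on other lymphocytes, the lymphotoxins on lymphoid stroma, the colony-stimulating factors on myeloid cells, and XCL1 on the DCs that carry its receptor XCR1. Macrophages, fibroblasts, and tumor cells are also known sources of some of them, among them TNF and CSF1.

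Cells came from breast tumors of MMTV-PyMT mice, in which a viral oncogene driven in the mammary gland causes spontaneous tumors. The mice were PyMT-PAR2 WT or PyMT-PAR2 G37I, the second carrying a receptor variant that coagulation factor Xa cannot signal through. Beads selected CD11c+ cells from digested tumors of late stage and CD4/CD8 T cells from tumors of middle size, with 3 samples of each genotype per selection and 12 in all, and libraries were made on the 10x Genomics platform, which counts each captured mRNA molecule once by its unique molecular identifier (UMI). The mice received no further treatment. The labels give no age. The methods give an age for the adult mice of the study and another for the model in general, and tie neither to these samples. Tumor stage and selection cannot be told apart where levels of the 2 matrices are set side by side.

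The 6 samples of each selection are pooled in 1 matrix, and nothing in it ties a cell to its sample. Each matrix was therefore treated as 1 sample, the genotypes were not compared, and no p-values are given. The CD4/CD8-selected matrix held 22806 cells with at least 200 detected genes and 135965765 UMIs, with a median of 4361 UMIs per cell. The CD11c-selected matrix held 11639 such cells and 123642015 UMIs, with a median of 7943. Barcodes are listed in 6 successive alphabetical runs in each matrix. In the CD4/CD8-selected matrix 51 barcodes occur more than once, and in the CD11c-selected matrix 76. The runs were not linked to samples, and they are used only to show how far a value rested on 1 stretch of cells. Levels are UMIs of a gene per 1000000 UMIs of the cells in question, with 95% Poisson intervals in brackets, and shares have Clopper-Pearson intervals. All intervals cover counting error only. Where no UMI was found, the upper limit is that of 3 counts.

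Cells were gated on the raw UMIs of marker genes. In the CD4/CD8-selected matrix the CD8 gate held 14077 cells (61.7%), the conventional CD4 gate 561 (2.46%), the *Foxp3* gate of regulatory T cells 91, and the *Trdc* gate, named for the constant region of the T cell receptor δ chain, 203. Median UMIs per cell in these gates were 4702, 3982, 3868, and 5198. The gates were unevenly spread over the runs: 369 of the 561 conventional CD4 cells lay in run 1 and 116 in run 4, and 184 of the 203 *Trdc* cells in run 2. No gate took 6682 cells (29.3%), of which 5271 had *Cd3* UMIs. In the CD11c-selected matrix 6412 cells (55.1%) were gated as macrophages and 1342 (11.5%) as DCs.

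The *Trdc* gate went against the γδ T cell label. Of its 203 cells, 188 had *Cd8a* UMIs and 193 had UMIs of *Trac*, the constant region of the α chain, at a level of 1167 [1106–1231]. *Tcrg-C1*, a γ chain constant region, stood at 10.2 [5.28–17.8], against 18.1 [17.2–19.1] in the CD8 gate. *Tcrg-C4*, another γ chain gene, was at 147 [126–171], against 52.9 [51.3–54.5]. These cells are called *Trdc*+ cells here. Without run 2 their *Ifng* and *Tnf* levels stayed within counting error, while those of *Xcl1* and *Ltb* did not.

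*Ifng*, the type II interferon of cytotoxic and TH1 cells, was transcribed by CD8 and CD4 cells alike. Its level was 143 [139.9–145] in the CD8 gate and 284 [264–306] in the conventional CD4 gate. It was 120.0 [101–141] in *Trdc*+ cells and 17.3 [7.49–34.2] in *Foxp3* cells, from 8 UMIs. The CD8 gate, with 57.8% of the UMIs of all genes, held 70.2% of the 15946 *Ifng* UMIs, and the conventional CD4 gate 4.40%, while ungated *Cd3*+ cells held 23.3%. A UMI of *Ifng* was found in 30.9% of CD8 cells and 36.0% of conventional CD4 cells, compared with 1.09% of 823 macrophages of the same matrix, whose median depth of 16698 UMIs was higher than the 4702 of CD8 cells. After thinning each cell to 2000 UMIs the shares were 18.2%, 26.1%, and 0.129%. The share in T cells was thus far above that in a cell type that should lack the transcript. The CD11c-selected matrix had 90 *Ifng* UMIs, 3 of them in macrophages and 1 in DCs, while its 20 gated NK cells had a level of 104 [61.6–164], or 40.3 without run 1.

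The size of the difference in *Ifng* between conventional CD4 and CD8 cells rested on run 1, and its direction turned in run 4. Over all runs the CD4 level was 1.99-fold the CD8 level, a log2 ratio of CD8 to CD4 of -0.996. In run 1 alone the CD4 level was 367 [337–398] and the CD8 level 155 [149–161], a log2 ratio of -1.25. In run 4, with 116 CD4 cells, the CD4 level was 107 [81.9–136] and the CD8 level 156 [148–163], a log2 ratio of 0.54. With run 1 left out the CD4 level was 145 and the log2 ratio -0.061. Conventional CD4 levels in runs 2, 3, 5, and 6, each with at most 32 of these cells, were 331 [209.6–496], 314 [176–519], 115 [67.2–185], and 242 [138–392]. The CD4 level was thus above the CD8 level in every run but run 4, beyond counting error in runs 1 and 2, while run 4 held most of the CD4 cells outside run 1. Runs 1 and 4 were set side by side after the values had been seen.

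Levels of *Ifng* in the CD8 gate also differed among runs. They were 155, 97.6, 223, 156, 86.8, and 154 in runs 1 to 6. Runs 2 and 5 were low and run 3 was high, beyond counting error. *Tnf* stood at 76.3, 62.4, 90.9, 69.9, 42.3, and 64.6 in the same runs, again highest in run 3 and lowest in run 5. Run 3 also held 431 of the 823 macrophages of the matrix, and its part in these levels was not tested.

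*Tnf*, a cytokine of activated T cells and macrophages, stood at a higher level in macrophages than in the T cell gates. In the CD4/CD8-selected matrix its level was 66.5 [64.8–68.4] in the CD8 gate, 94.9 [83.1–108] in conventional CD4 cells, 63.8 [50.2–80.0] in *Trdc*+ cells, and 30.4 [16.6–50.9] in *Foxp3* cells. The 823 macrophages that had come through the T cell selection stood at 184 [177–191] and held 23.6% of the 11898 *Tnf* UMIs, while the CD8 gate held 43.9%. In the CD11c-selected matrix, macrophages stood at 210.5 [207–214] and held 82.9% of 18264 UMIs. DCs stood at 14.9 [13.2–16.8] and 113 neutrophils at 201 [161–249]. Macrophages of both selections thus had a higher *Tnf* level than the T cell gates of the CD4/CD8-selected matrix, and CD11c-selected DCs a lower one than CD8, conventional CD4, and *Trdc*+ cells. Over the runs, the level in CD11c-selected macrophages lay between 160.2 and 261.

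*Tnf* was also found in epithelial cells, at 104 [95.4–112] in the CD4/CD8-selected matrix, or 73.8 without run 3, and at 81.8 [74.7–89.5] in the CD11c-selected matrix. Fibroblasts had 0.858 [0.0217–4.78] and 2.14 [0.582–5.47] in the same matrices. A UMI was present in 24.4% of CD8 cells, 65.2% of macrophages, and 1.33% of 75 fibroblasts of the CD4/CD8-selected matrix, whose median depth was 16109 UMIs. Thinned to 2000 UMIs these shares were 12.4%, 27.1%, and 0. Fibroblasts, as deep as the macrophages, thus set the background, and macrophages and CD8 cells were above it. Among DCs the *Tnf* level was 22.8 [19.2–26.9] in those with *Cd209a*, a marker of monocyte-derived and type 2 DCs, 15.8 [10.9–22.1] in migratory *Ccr7*+*Fscn1*+ DCs, and 4.76 [3.39–6.51] in *Xcr1*+ or *Clec9a*+ type 1 DCs.

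*Xcl1*, the chemokine that attracts XCR1-bearing DCs, had its highest level among the T cell gates of the CD4/CD8-selected matrix in CD8 and *Trdc*+ cells. Its level was 294 [290.5–298] in the CD8 gate and 294 [264–327] in *Trdc*+ cells, most of which lay in run 2. Within run 2 the level was 269 [239–301] in 184 *Trdc*+ cells and 509.8 in CD8 cells, and without run 2 it was 573 in *Trdc*+ cells and 257 in CD8 cells, so that the direction within run 2 was the opposite of that outside it, where few *Trdc*+ cells lay. The level was 116 [103–130.2] in conventional CD4 cells and 4.34 [0.525–15.7] in *Foxp3* cells, from 2 UMIs in 1 cell of run 1. The CD8 gate held 79.2% of 29171 UMIs. The share of CD8 cells with a UMI was 35.0%, or 21.9% after thinning, compared with 0.972% and 0.129% of macrophages. In the CD11c-selected matrix the few lymphocytes had the highest levels: 1408 [1237–1596] in 20 NK cells, 1108 [928–1313] in 25 CD8 cells (543 without run 2), and 884 [681–1129] in 10 *Trdc*+ cells. Macrophages had 1.06 [0.833–1.32], with all UMIs in 10 cells, and 0.276 without run 2. DCs had 1.33 [0.863–1.97], and 0.439 without run 3. *Xcr1*, the gene of its receptor, stood at 1.63 in CD11c-selected macrophages and at 229.6 in the *Xcr1*+ or *Clec9a*+ DCs, which were gated on it.

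*Xcl1* was higher in CD8 cells than in conventional CD4 cells over all runs, by 2.54-fold [2.26–2.86]. The log2 ratio was 1.34 over all runs, 0.56 in run 1 alone, and 2.94 in run 4 alone. Conventional CD4 levels in runs 1 to 6 were 121, 259, 419, 33.8, 210.5, and 151. The CD8 levels were 179, 509.8, 137, 259.9, 246, and 355 in the same runs. The direction turned in run 3, where the 11 conventional CD4 cells had 419 [256–647] against 137 [128–146], and the difference in run 5 was within counting error. Among CD8 levels, run 2 was highest for *Xcl1*, and run 3, which was highest for *Ifng* and *Tnf*, was lowest for it. In conventional CD4 cells run 3 was instead the highest and run 4 the lowest.

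**Figure D1:**
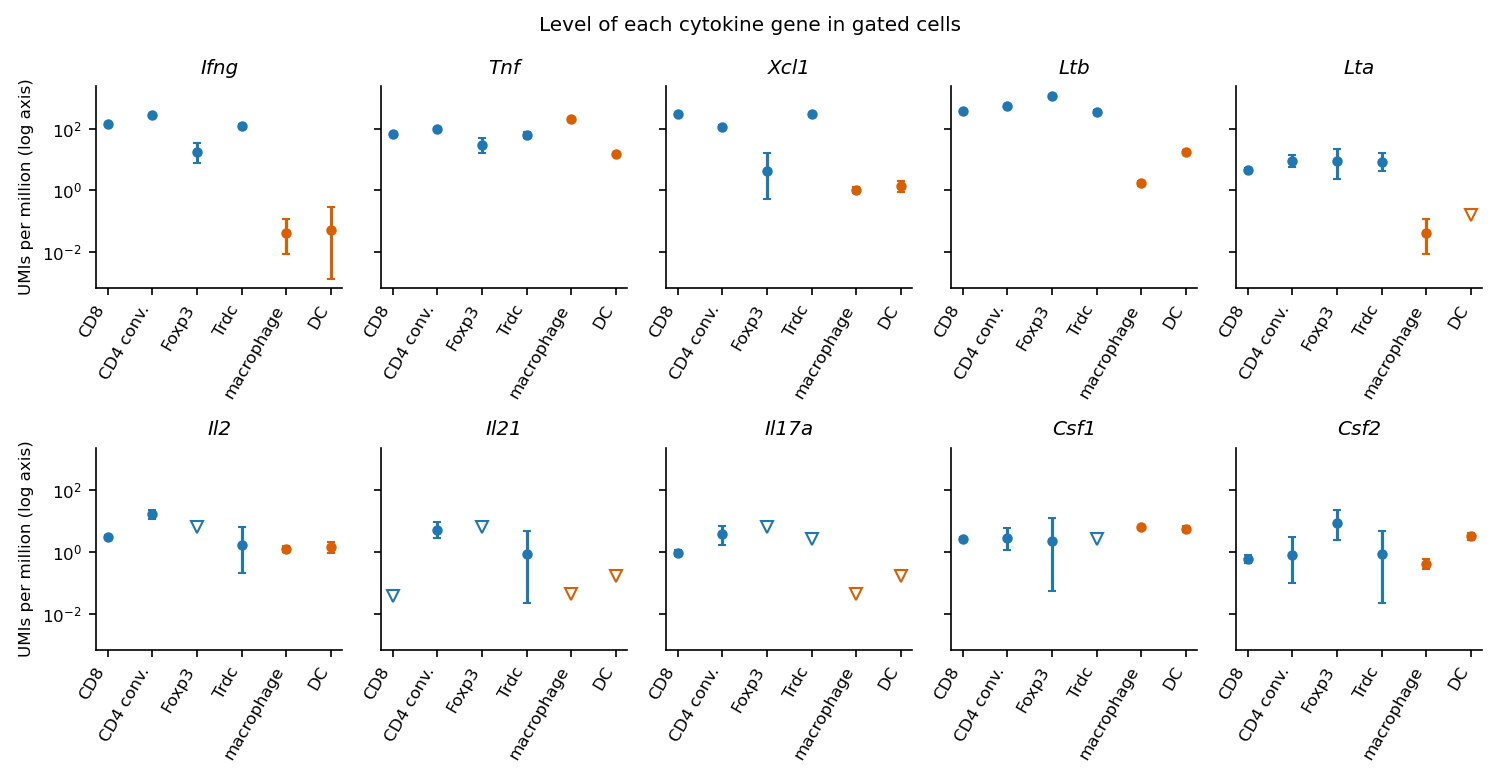
Level of each cytokine gene in UMIs per 1000000 UMIs on a log axis, in CD8, conventional CD4, *Foxp3*, and *Trdc* gates of the CD4/CD8-selected matrix (blue) and in macrophages and DCs of the CD11c-selected matrix (orange). Bars are 95% Poisson intervals and open triangles mark the upper limit where no UMI was found; *Ltb* reached 1106 in *Foxp3* cells and *Tnf* 210.5 in macrophages.

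*Ltb*, lymphotoxin β, which joins lymphotoxin α in a membrane complex that signals to the LTβR of stromal and myeloid cells, was higher in *Foxp3* cells than in the other T cell gates. Its level was 1106 [1012–1206] in *Foxp3* cells, 548 [519–578] in conventional CD4 cells, 359 [354–363] in the CD8 gate, and 353 [319.9–389] in *Trdc*+ cells. Without run 2 the *Trdc*+ level was 211. The *Foxp3* level was 3.08-fold that of CD8 cells, in contrast to *Ifng*, *Tnf*, and *Xcl1*, which were 8.22-fold [4.17–19.0], 2.19-fold [1.31–4.01], and 67.9-fold [18.8–560.4] higher in CD8 than in *Foxp3* cells. With each run left out in turn the *Ltb* level of *Foxp3* cells lay between 988 and 1267. A UMI was found in 90.1% of *Foxp3* cells and 72.4% of CD8 cells, or 80.5% and 47.1% after thinning, compared with 3.52% and 0.387% of macrophages. The CD8 gate held 71.7% of 39251 UMIs. The CD8 level by run was between 331 and 347 in 5 runs and 536 [519–554] in run 3.

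Outside T cells *Ltb* was found in DCs and neutrophils more than in macrophages. In the CD11c-selected matrix DCs had a level of 18.1 [16.2–20.1] and 36.5% of 930 UMIs, and macrophages 1.70 [1.41–2.03]. Among DCs the migratory *Ccr7*+*Fscn1*+ cells were highest, at 39.7 [31.6–49.2], followed by *Cd209a*+ cells at 16.9 [13.7–20.5] and *Xcr1*+ or *Clec9a*+ cells at 3.78 [2.57–5.37]. Neutrophils had 68.7 [46.0–98.7]. *Ltbr*, the receptor gene, was at 40.4 in CD11c-selected macrophages and 0.293 in CD8 cells, while no UMI was found in conventional CD4 cells, which allows up to 1.22.

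*Lta*, which encodes lymphotoxin α, was low in every T cell gate. Its level was 4.60 [4.14–5.10] in the CD8 gate, 8.92 [5.59–13.5] in conventional CD4 cells, 8.67 [2.36–22.2] in *Foxp3* cells, and 8.51 [4.08–15.6] in *Trdc*+ cells. The last 3 did not differ beyond counting error. The *Foxp3* level, from 4 UMIs, was 5.15 without run 5 and 13.9 without run 1. Macrophages had 0.196 [0.0405–0.574], from 3 UMIs. The CD8 gate held 70.9% of 509 UMIs, and the CD11c-selected matrix had 13 in all.

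*Il2*, the T cell growth factor, was a rare transcript that leaned to CD4 cells. Its level was 16.6 [11.9–22.5] in conventional CD4 cells and 3.07 [2.69–3.48] in the CD8 gate, a difference of 5.42-fold. Of the 41 UMIs in conventional CD4 cells 12 lay in 1 cell. *Foxp3* cells had none, which allows up to 6.50. Macrophages had 1.18 [0.698–1.86] in the CD4/CD8-selected matrix, or 1.86 without run 3, and 1.21 [0.969–1.49] in the CD11c-selected matrix, with at most 2 UMIs in a cell of the latter. Of CD8 cells 1.63% had a UMI, compared with 2.19% of the deeper macrophages, and 0.595% after thinning, compared with 0.258%. The unthinned share in CD8 cells was thus not above background, while in conventional CD4 cells the shares were 4.63% and 3.02%. By run, the CD8 level lay between 2.56 and 3.76. *Il2ra*, the high-affinity receptor chain, was at 575 in *Foxp3* cells, 36.1 in conventional CD4 cells (55.3 without run 1), and 6.70 in CD8 cells.

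*Il21*, a cytokine of follicular helper CD4 cells that acts on B cells and CD8 cells, had 21 UMIs in 13 cells. Of these UMIs 13 were in 6 conventional CD4 cells, a level of 5.27 [2.81–9.01], 7 in 6 ungated *Cd3*+ cells, and 1 in a *Trdc*+ cell. The 14077 CD8 cells had none, which allows a level of up to 0.0382. Runs 1 to 6 had 8, 2, 0, 2, 1, and 0 of the cells. The CD11c-selected matrix had no UMI of the gene. *Il21r*, its receptor gene, was spread more evenly, at 162 in CD8 cells, 183 in conventional CD4 cells, and 34.0 in CD11c-selected macrophages.

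*Il17a*, the signature cytokine of TH17 and some γδ T cells, had 87 UMIs in 17 cells, and 3 cells held at least 50% of them. The CD8 gate held 73 of these UMIs in 11 cells, a level of 0.930 [0.729–1.17], and conventional CD4 cells 9 UMIs in 2 cells, 8 of them in 1 cell, a level of 3.65 [1.67–6.93], or 0.533 without run 4. *Trdc*+ cells had none, which allows up to 2.55. The CD11c-selected matrix had 3 UMIs. In the CD8 gate runs 1 to 6 had 0, 16, 0, 7, 41, and 9 UMIs, and the cell with the most had 24. Without run 5 the CD8 level was 0.475. The level of this gene is therefore that of a few cells and not of a gate.

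The 11 *Il17a*+ cells of the CD8 gate were compared with the remaining CD8 cells for genes chosen after their values were seen, together with genes of the lists. *Il17f*, the closest relative of *Il17a*, was at 99.1 [47.5–182] against 0.0765 [0.0281–0.167], from 10 UMIs in 3 of the 11 cells. *Ramp1*, a subunit of the receptor for the neuropeptide CGRP, was at 228 [144–342] against 6.06 [5.52–6.63], from 23 UMIs in 4 cells, and *Tmem176a*, a membrane protein gene, at 267 [176–389] against 7.93 [7.32–8.58], from 27 UMIs in 7 cells. The costimulatory receptor gene *Icos* was at 911 [735–1118] against 164 [161–167], in 10 of the 11 cells. *Icos* and *Tmem176a* were thus found in most of the 11 cells, and *Il17f* and *Ramp1* in a minority. *Ifng* had 2 UMIs in the 11 cells. All 11 cells had *Trac* UMIs, and none had *Trdc*, which the gate barred.

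*Csf1*, the macrophage growth factor, had its highest levels outside the T cell gates. Fibroblasts had a level of 372 [337–408] in the CD4/CD8-selected and 619 [584–656] in the CD11c-selected matrix, and epithelial cells 88.4 [81.0–96.4] and 102 [93.7–110.1]. These levels moved with the run. In the CD4/CD8-selected matrix fibroblasts had 294.8 without run 5 and 467.5 without run 3, and epithelial cells 62.2 without run 4 and 128 without run 3. CD11c-selected fibroblasts had between 364 and 772 in runs with at least 20 of them. In the CD11c-selected matrix neutrophils had 315 [264–374], or 508 without run 6, macrophages 6.34 [5.77–6.95], and DCs 5.55 [4.53–6.72], or 3.15 without run 4. CD8 cells had 2.70 [2.35–3.09] and 11.3% of 1875 UMIs, and conventional CD4 cells 2.84 [1.14–5.85], from 7 UMIs, or 4.34 without run 1. By run, the CD8 level differed beyond counting error, from 1.11 [0.591–1.90] in run 2 to 6.54 [4.79–8.72] in run 3. Ungated *Cd3*+ cells held 29.3% of the UMIs, with 91 of them in 1 cell. *Trdc*+ cells had none, which allows up to 2.55. *Csf1r*, its receptor, was at 591 in CD11c-selected macrophages, which were gated on it among other genes, and 0.586 in CD8 cells. The *Csf1* level in CD8 cells was 2.68 without the 9 CD8 cells that had at least 3 collagen UMIs, a filter chosen after the data had been seen.

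*Csf2*, which encodes the myeloid growth factor GM-CSF, had 209 UMIs in the CD4/CD8-selected matrix, and 126 of them lay in 1 ungated *Cd3*+ cell of run 3. That cell had 31636 UMIs, among them 132 of *Igfbp6*, 94 of *Col3a1*, and 58 of *Col1a1*, all genes of fibroblasts, with 10 of *Cd3g* and 3 of *Cd8a*. No doublet caller was run and no doublets were removed, and whether this barcode held more than 1 cell was not tested. CD8 cells had 46 UMIs, a level of 0.586 [0.429–0.781], and *Foxp3* cells 4 UMIs. In the CD11c-selected matrix 183 UMIs were found, with 61 in DCs, 54 of these in 1 cell of run 2, 58 in 3 fibroblasts, and 30 in macrophages, 18 of these in 1 cell. The DC level was 3.25 [2.49–4.18], and 0.459 without run 2. Single cells thus held most *Csf2* UMIs of the CD11c-selected DCs and macrophages and of the ungated cells, while the 46 UMIs of the CD8 gate lay in 38 cells over all 6 runs. *Csf2rb*, the receptor chain gene, was at 692 in CD11c-selected DCs and 307 in macrophages, compared with 1.35 in CD8 cells.

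CD8 and conventional CD4 cells were compared over all genes with at least 20 UMIs in the 2 gates together, of which 9 of the 10 members were tested. Of these 9, 1 (*Xcl1*) was at least 2-fold higher in the CD8 gate, where 12.0% of 12628 genes were (6.51% of the 11879 genes with UMIs in both gates, a count added after seeing the data), and 2 (*Il2* and *Il17a*) were at least 2-fold higher in conventional CD4 cells, where 8.24% were. The share of members higher in CD8 cells was thus near that of all genes. *Il17a* was 3.92-fold higher in conventional CD4 cells on 9 UMIs, 8 of them in 1 cell, and its log2 ratio of CD8 to CD4 went from -1.97 to 0.86 without run 4 and to 0.60 with at most 10% mitochondrial UMIs, which turns the direction. *Ifng* at 1.99-fold and *Lta* at 1.94-fold higher in CD4 cells lay just inside the limit, which *Lta* passed without run 1, 2, 3, or 6 and *Ifng* without run 3, 4, or 6. The members at least 2-fold higher in CD4 cells then numbered from 2 to 4. The median CD8 to CD4 ratio was 0.655 over the members tested and 1.01 over all genes.

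Other cytokine genes of T cells were mostly higher in CD4 cells. Of 13 listed, 9 were tested, 7 were at least 2-fold higher in conventional CD4 cells and 0 in CD8 cells, with a median ratio of 0.0770. Of genes with UMIs in both gates 8.75% were at least 2-fold higher in conventional CD4 cells. Without run 1 the count was 6 of 8 and the share of all such genes 13.9%. *Cd40lg*, the ligand by which helper cells license DCs and B cells, was 77.5-fold higher, at 83.9 against 1.08, and 117-fold without run 1. *Tnfsf11*, the RANKL gene, was 9.17-fold higher at 188 against 20.5. Leaving out runs, which for genes of the lists was added after seeing the data, kept the direction of each gene named here but moved several sizes. *Tnfsf8*, the CD30 ligand gene, was 23.1-fold higher at 332 against 14.3, but its CD4 level was 215 without run 4, a 14.4-fold difference, and 559 without run 1. *Il10*, an inhibitory cytokine, was 13.0-fold higher, at 12.6 against 0.968, from 31 UMIs in CD4 cells, and its CD4 level was 5.86 without run 4, a 5.81-fold difference, while the ratio of CD8 to CD4 was 0.0270 without run 1. *Fasl*, the death ligand gene, was 1.18-fold higher in CD8 cells.

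Receptors of the cytokines were compared in the same gates. Of 16 listed, 12 had at least 20 UMIs in all and UMIs in both gates, 0 were at least 2-fold higher in CD8 cells and 4 in conventional CD4 cells, with a median ratio of 0.789. Of these 4, *Ifngr2* and *Csf2rb2* rested on run 4, without which the ratio of CD8 to CD4 was 0.774 for *Ifngr2* and no CD4 UMI of *Csf2rb2* was left. *Csf2ra*, with 2 CD4 UMIs, passed 2-fold without run 1. *Ltbr* and *Csf1r* had 23 and 46 UMIs in CD8 cells and 0 in conventional CD4 cells, which allows up to 1.22, above their levels in CD8 cells, so that no direction is given. *Ifngr1*, the ligand-binding chain of the IFN-γ receptor, stood at 892 and 1285, and *Tnfrsf1b*, the TNFR2 gene, at 225 and 259 in CD8 and conventional CD4 cells. Of 15 activation genes 5 were at least 2-fold higher in CD8 cells and 3 in conventional CD4 cells, with *Ccl4*, a chemokine gene, 5.29-fold and *Crtam*, an adhesion receptor gene of cytotoxic cells, 15.8-fold higher in CD8 cells. Some of these calls rested on single runs. Without run 1 *Ccl4* was 15.6-fold and *Crtam* 9.90-fold higher, and without run 4 *Crtam*, with 5 CD4 UMIs in all, was 29.2-fold higher. *Nr4a2* was 1.89-fold higher without run 1, *Myc* was 4.80-fold higher without run 1 and under 2-fold without run 2, 4, or 6, and *Egr2* lost its call for CD4 cells without run 1, at a ratio of 0.750. *Irf4* passed 2-fold for CD4 cells without run 1, 3, or 6, and *Nr4a1* without run 6, so that up to 5 activation genes were then higher there. Of 10 transcription factor genes 8 were tested, 1 higher in CD8 cells (*Eomes*, 9.45-fold) and 2 in conventional CD4 cells (*Maf*, 10.1-fold, and *Gata3*, 2.61-fold). *Tox* joined the first without run 2, 4, 5, or 6, and *Bcl6* the second without run 1, 5, or 6. Of all genes 12.0% were at least 2-fold higher in CD8 cells and 8.24% in conventional CD4 cells. Of the 11879 genes with UMIs in both gates, the rule by which receptors were counted, the shares were 6.51% and 8.75%. Without run 1 the latter shares were 7.85% and 13.9%.

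Cells with and without *Ifng* were compared within the CD8 gate, to see which cytokines shared a cell. The 4352 *Ifng*+ cells had a median of 4927 UMIs and the 9725 others 4611. *Tnf* was at 89.0 and 55.4, a 1.61-fold difference [1.52–1.70]. *Csf1* was at 3.75 and 2.18, 1.72-fold higher [1.30–2.27], and *Lta* at 5.77 and 4.01, 1.44-fold higher [1.16–1.78]. *Xcl1* and *Ltb* differed by little, at 1.11-fold [1.08–1.14] and 1.06-fold [1.04–1.09]. In *Ltb*+ cells *Ifng* was instead lower over all runs, at 0.940 with an interval under 1, so that *Ifng* and *Ltb* had no common direction. This *Ifng* difference was within counting error without run 2, at 0.967 [0.923–1.01], and without run 6, at 0.999 [0.947–1.05]. In *Lta*+ cells *Ifng* stood at 1.09 [0.986–1.21], or 0.778 without run 6. *Il2* was 1.19-fold higher, with an interval from 0.909 to 1.56. No member reached 2-fold, while 1.09% of 12534 genes did. The same split within each run, added after seeing the data, gave *Tnf* ratios from 1.36 to 2.18, each above 1 beyond counting error. *Csf1* was above 1 in each run, beyond counting error in runs 1, 3, and 6. In *Csf1*+ cells, however, *Ifng* stood at 0.710 [0.388–1.19] in run 1, and between 1.13 and 1.95 in the other runs. *Lta* was so in run 6 alone and stood at 0.686 [0.324–1.38] in run 3, and *Xcl1* lay between 0.935 in run 5 and 1.71 in run 1. Of the members named here *Tnf* alone was thus higher in *Ifng*+ cells beyond counting error in every run.

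Among genes other than the members that were found in at least 10% of *Ifng*+ cells, those with the largest fold were *Ccl4* at 3.16-fold, *Cxcl10*, an interferon-induced chemokine gene, at 3.11-fold, and the heat shock gene *Hspa1b* at 3.07-fold. The first 2 were higher in each run, and *Hspa1b* in each but run 3, where its ratio was 0.763 [0.489–1.17]. Over all runs together the 15 activation genes all had a ratio above 1, the lowest being 1.03 for *Tnfrsf9*: 4 of 15 were at least 2-fold higher (*Ccl3*, *Ccl4*, *Egr2*, and *Irf4*; *Ccl3* at 3.63-fold in 8.50% of the cells), with a median ratio of 1.51 compared with 1.03 over all genes. *Nr4a1*, an early gene of T cell receptor signaling, was at 139 and 79.5. Of the other lists, 0 of 14 receptor genes, 0 of 8 transcription factor genes, and 1 of 6 other cytokine genes (*Cd40lg*, 2.05-fold, but 1.86-fold without run 2 and 1.95-fold without run 6) reached 2-fold.

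*Xcl1*+ cells of the CD8 gate (4923, with a median of 6011 UMIs against 4216) were compared with the others in the same way, over all runs and within each. *Ltb* was lower in them at a ratio of 0.792 [0.773–0.811], and below 1 in each run, from 0.596 to 0.960, within counting error in run 2. In *Ltb*+ cells, however, *Xcl1* was 1.10-fold higher [1.07–1.14], above 1 beyond counting error in runs 1, 2, and 6 and below it in runs 4 and 5, so that *Ltb* and *Xcl1* had no common direction. *Csf1* was lower at 0.290 [0.200–0.411], from 0.172 to 0.728 by run, within counting error in runs 2 and 3. In *Csf1*+ cells *Xcl1* was lower as well, at 0.785 [0.684–0.898] over all runs and below 1 beyond counting error in runs 1 to 5, but at 2.45 [2.07–2.88] in run 6, and 0.318 without it. *Csf1* and *Xcl1* were thus lower in both splits in every run but run 6. *Tnf* was lower at 0.853 [0.807–0.902], but at 1.12 [0.963–1.30] in run 4. *Ifng* stood at 0.972 [0.936–1.01], which joined runs of opposite direction: it was lower in runs 3 and 5, at 0.599 and 0.607, and higher in runs 1, 4, and 6. *Lta* was 1.53-fold higher [1.24–1.90], beyond counting error within run 3 alone. In *Lta*+ cells *Xcl1* was higher beyond counting error in runs 2, 3, and 4 but lower in run 5, at 0.606 [0.446–0.806]. *Csf2* was 3.53-fold higher in *Xcl1*+ cells [1.78–7.49], from few UMIs and within counting error in each run. By the same rule the genes with the largest fold were *Klra7*, an inhibitory lectin receptor gene of the Ly49 family, at 5.44-fold, *Klre1*, another lectin receptor gene, at 2.26-fold, and *Il12rb2*, an IL-12 receptor chain gene, at 2.22-fold, each higher in every run. The 174 *Csf1*+ cells had higher *Cd200r1*, an inhibitory receptor gene, at 5.95-fold, *Gsn*, an actin-severing protein gene, at 4.54-fold, and *2900026A02Rik* at 4.41-fold. *Cd200r1* was at 1.87 [0.0467–10.8] in run 1 and 0.956 [0.0238–5.56] in run 3, each from 1 UMI. The *Gsn* fold rested on run 1, where it was 24.6, compared with at most 2.58 in the other runs, and was 2.06 without run 1.

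In *Tnf*+ cells *Ifng* was 1.63-fold [1.57–1.69] and *Lta* 1.52-fold [1.22–1.89] higher, *Ifng* in each run and *Lta* beyond counting error in runs 5 and 6 and below 1 in run 3, at 0.867 [0.377–1.83]. *Xcl1* was 1.11-fold higher [1.08–1.14] over all runs but lower in run 3, at 0.731, and by less in run 6, and *Tnf* was lower in *Xcl1*+ cells, so that *Tnf* and *Xcl1* had no common direction. By the rule for other genes those of largest fold in *Tnf*+ cells were *Nfkbid* at 1.46-fold, *Jun* at 1.44-fold, and *Hspa1b* at 1.43-fold, the first a regulator of NF-κB and the second an AP-1 subunit. For *Il2*+ cells they were *Timp2*, *Hist1h2ap*, and *Bloc1s1*, at 2.41-, 2.28-, and 2.24-fold, but *Timp2* rested on run 1, where it was 11.4-fold higher, compared with ratios of at most 0.854 elsewhere, and was 0.704 without run 1. *Hist1h2ap* in run 3 and *Bloc1s1* in run 2 were below 1, from at most 2 UMIs. For *Lta*+ cells they were *Dapl1*, *Tnfsf8*, and *Cxcl10*, at 2.28-, 2.24-, and 2.13-fold. Of these, *Tnfsf8* was above 1 in each run, while *Dapl1* stood at 0.437 in run 1 and *Cxcl10* at 0.612, 0.524, and 0.848 [0.529–1.29] in runs 1, 3, and 5, so that *Cxcl10* was below 1 in 3 of 6 runs. For *Ltb*+ cells they were the chromatin and mitosis genes *Hmgn2*, *Smc2*, and *Prc1*, at 1.59-, 1.55-, and 1.54-fold, with *Smc2* at 0.918 in run 4. The *Ltb*+ cells were deeper, with a median of 4987 UMIs against 4101.5. By level, *Ltb* was instead lower in cycling CD8 cells than in other CD8 cells, at a ratio of 0.820 [0.794–0.846]. Deeper cells are more often counted as positive for a gene. With the second gene thinned to 2000 UMIs per cell, *Tnf* was found in 16.2% of *Ifng*+ and 10.7% of other CD8 cells, and in 12.0% of *Xcl1*+ and 12.7% of other CD8 cells, where the unthinned shares were 32.5% and 20.8%, and 27.8% and 22.6%. The order thus held for the first pair and not for the second. The gene that split the cells was not thinned, and neither were genes other than the members. In conventional CD4 cells, the 202 *Ifng*+ cells had *Xcl1* 3.04-fold higher [2.38–3.91] and *Tnf* 1.44-fold higher [1.10–1.87] than the 359 others. Within run 1 the *Xcl1* ratio was 2.19 [1.62–2.97], and within run 4 it was 0.800 [0.228–2.32], while *Tnf* was at 1.45 and 1.67. In the 68 *Xcl1*+ CD4 cells of run 1, *Ifng* was at a ratio of 1.10 [0.891–1.35], within counting error. Without run 1 the *Xcl1* ratio was 5.74. The other runs had too few of these cells to split. The CD4 cells with *Ifng* had 10.6-fold higher *Ccl4*, from 60 UMIs in 4.46% of the cells, while *Gzmb*, a granzyme gene with 18 UMIs in 3.47% of the cells, stood at a ratio of 0.303, but above 1 within run 1, at 1.53 and within counting error, and 0.0257 without run 1 and 1.26 without run 4, and *Tnfrsf9*, the 4-1BB gene, at 0.432. The *Tnfrsf9* ratio was 0.618 [0.372–0.999] in run 1 and 0.218 [0.0849–0.472] in run 4. *Penk*, the proenkephalin gene, was 16.6-fold higher, from 244 UMIs in 7.43% of the cells, so that the folds of *Ccl4* and *Penk* rested on few cells. *Ccl4* was 17.2-fold higher in run 1 and at 1.20 [0.109–8.38] in run 4, and 1.81-fold higher without run 1. *Penk* was 8.26-fold higher without run 4, 26.7-fold without run 5, and 30.7-fold without run 1. *Hspa1a*, a heat shock gene, was 5.71-fold higher, or 9.41-fold without run 1. *Gzmb*, *Penk*, and *Hspa1a* were chosen for this gate after their values were seen.

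In most CD8 cells UMIs of only a few members were found, and the number found rose with the depth of the cell. A member without a UMI may still have been transcribed, so these counts do not limit how many members a cell made. Of the CD8 cells 36.6% had no UMI of *Ifng*, *Tnf*, or *Xcl1*, and 4.12% (580 cells) had UMIs of all 3. At least 3 of the 10 members were found in 20.4% of cells, which had a median of 5981 UMIs compared with 3601 in cells with none.

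Subsets of the CD8 gate differed in several cytokines. The subsets overlap, as 217 *Pdcd1*+*Tcf7*+, 81 *Pdcd1*+*Havcr2*+, and 213 *Itgae*+*Pdcd1*- cells were also counted as cycling. *Pdcd1*+*Tcf7*+ cells, which have the marker pair of progenitor exhausted cells (1582), had an *Ifng* level of 163 [156–171], an *Xcl1* level of 322 [311–332], and a *Csf1* level of 0.621 [0.250–1.28], from 7 UMIs, or 0.286 without run 3. *Pdcd1*+*Havcr2*+ cells, with the marker pair of terminally exhausted cells (380), had *Ifng* at 207 [189–226], with 520.3 in run 3 and 108 to 197 in the other runs, and *Xcl1* at 146 [131–163]. By run, the *Xcl1* level of these cells lay between 15.8 in run 3 and 318 in run 2. Their *Csf1* was at 15.7 [11.1–21.7], 6.85-fold the level of other CD8 cells [4.67–9.81]. The *Csf1* UMIs came from 23 of these cells, none of which had 3 or more collagen UMIs, and levels by run lay between 5.83 and 23.6. *Il17a* at 11.5 in the same subset rested on 3 cells, 1 of them with 16 of the 27 UMIs, and was 5.47 without run 2.

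*Itgae*+*Pdcd1*- cells, with a tissue-residency integrin (1306), had the highest *Xcl1* level of these subsets, 544 [529.7–559.6], compared with 260.2 in other CD8 cells, a 2.09-fold difference [2.03–2.16]. Their *Xcl1* level was higher than that of the CD8 gate in each run, from 282 to 682. Cycling cells (1602) had *Ifng* at 119.9 [114–125], *Tnf* at 48.4 [45.0–52.0], and *Ltb* at 305 [296–314], all lower than in other CD8 cells, although in run 4 their *Ifng* was at 175 [155–196], against 156 in the whole gate. Their *Xcl1* was at 350.0 [341–359.5], 1.25-fold that of other CD8 cells. The direction of this *Xcl1* difference varied with the run, as cycling cells had 699 against 509.8 for the gate in run 2, but 182 [165–199.9] against 246 [237–256] in run 5.

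**Figure D2:**
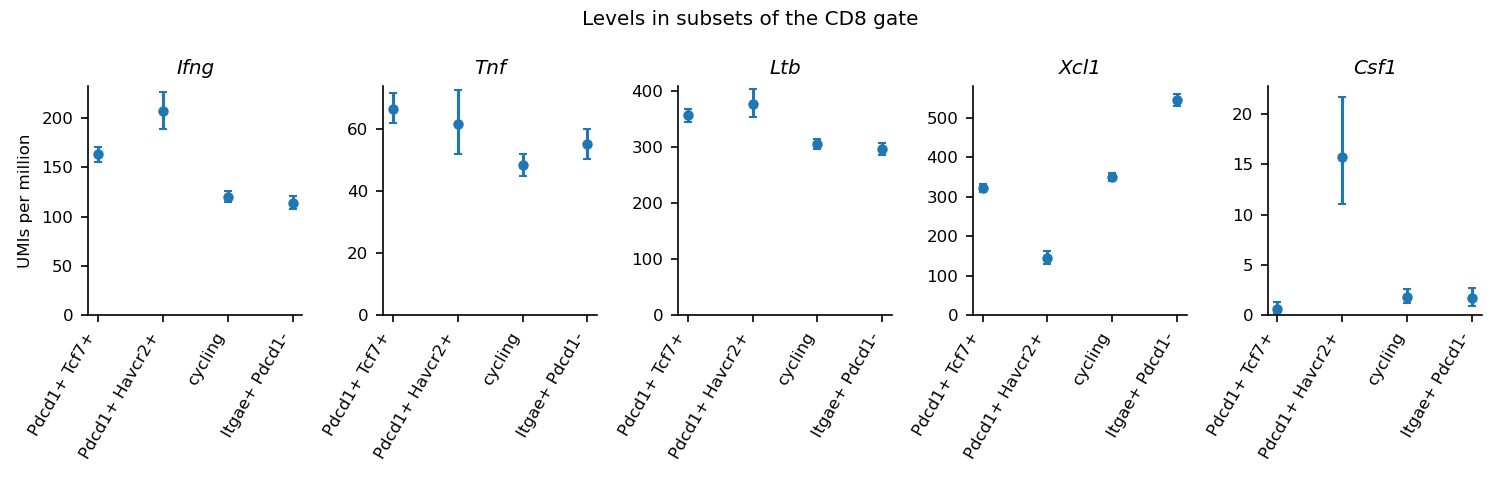
Levels of 5 cytokine genes, in UMIs per 1000000 UMIs, in subsets of the CD8 gate of the CD4/CD8-selected matrix, with 95% Poisson intervals. *Csf1* stood at 15.7 in *Pdcd1*+*Havcr2*+ cells and *Xcl1* at 544 in *Itgae*+*Pdcd1*- cells. Some cells of the other subsets were also counted as cycling.

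**Figure D3:**
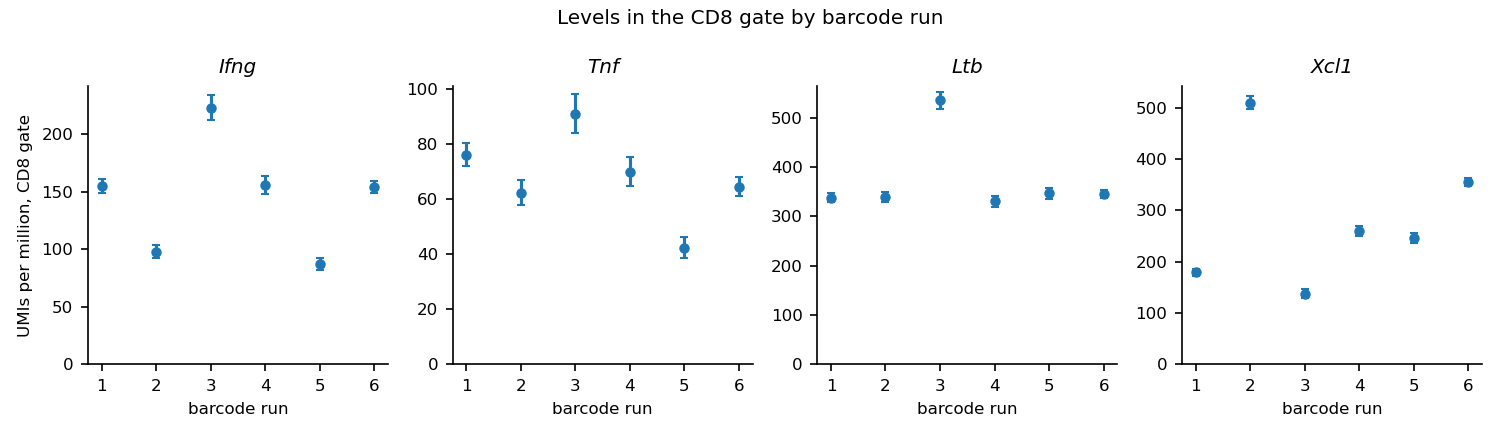
Levels of *Ifng*, *Tnf*, *Ltb*, and *Xcl1* in the CD8 gate, in UMIs per 1000000 UMIs, by barcode run, with 95% Poisson intervals. Run 3 was highest for *Ifng* (223), *Tnf* (90.9), and *Ltb* (536), and run 2 for *Xcl1* (509.8).

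Genes whose level over 13 gates of both matrices was most like that of a member were named by Pearson correlation, with no p, since gates share libraries and differ in depth. For *Ifng* they were *Actn2* (r = 0.99), *Themis*, and *Fasl*, for *Tnf* *2510039O18Rik*, *Tspan14*, and *Cipc* (r from 0.88 to 0.93), for *Ltb* *Rsbn1l*, *D16Ertd472e*, and *Tbc1d10c* (r from 0.97 to 0.98), for *Csf1* *Adamts1*, *Gja1*, and *Steap4* (r from 0.97 to 0.98), and for *Xcl1* *Samd3*, *Gm37387*, and *Gm14029* (r = 0.97). For *Lta* they were *Crmp1*, *Gm42372*, and *Gm2245* (r from 0.98 to 0.99), and for *Il2* *Cpne7*, *AI854703*, and *Ccdc166* (r from 0.86 to 0.89). *Il21*, *Il17a*, and *Csf2* rested on too few UMIs for such a match to be read. *Cpne7* and *AI854703* were also among the matches of *Il17a*, and *Cpne7* among those of *Il21*, so these matches were not particular to *Il2*.

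A group of 3 members lies together on chromosome 17. In GENCODE M21 on GRCm38, which was used for positions, *Ltb* spans 35194439 to 35196320 on the plus strand, *Tnf* 35199381 to 35202007 on the minus strand, and *Lta* 35203165 to 35205351 on the minus strand, with 3060 bases between *Ltb* and *Tnf* and 1157 between *Tnf* and *Lta*. *Il2* and *Il21* lie 96799 bases apart on chromosome 3. *Ifng* lies on chromosome 10, from 118441046 to 118445892 on the plus strand. *Tnf*, *Il17a*, and *Csf1* overlap no other gene, and each of the other 7 members overlaps 1, such as *Adad1* on the opposite strand of *Il2*. Without knowledge of how strand was used in counting, UMIs of overlapping genes cannot be told apart.

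Promoters of *Ifng* and of the neighbors *Tnf* and *Lta* are shown, since both neighbors were higher in *Ifng*+ CD8 cells over all runs together, though *Lta* not in each run. *Csf1*, which was also higher in these cells, lies apart on chromosome 3. The 250 bases before the RefSeq start on GRCm38.p6 are given 5′ to 3′ on the strand of each gene, at chr10:118440796-118441045 (plus), chr17:35202008-35202257 (minus), and chr17:35205352-35205601 (minus). Each window ends at the annotated gene start. Capitals mark GGAAA on either strand, the core that NFAT and Rel factors bind.
*Ifng*: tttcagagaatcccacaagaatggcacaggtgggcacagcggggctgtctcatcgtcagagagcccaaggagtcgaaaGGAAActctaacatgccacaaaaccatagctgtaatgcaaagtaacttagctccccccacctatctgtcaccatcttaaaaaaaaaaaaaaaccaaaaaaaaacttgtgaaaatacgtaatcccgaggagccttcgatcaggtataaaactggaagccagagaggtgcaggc
*Tnf*: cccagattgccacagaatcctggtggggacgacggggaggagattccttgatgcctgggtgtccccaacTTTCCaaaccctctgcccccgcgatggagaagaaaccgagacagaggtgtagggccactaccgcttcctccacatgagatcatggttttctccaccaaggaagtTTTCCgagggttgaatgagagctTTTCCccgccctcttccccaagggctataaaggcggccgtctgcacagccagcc
*Lta*: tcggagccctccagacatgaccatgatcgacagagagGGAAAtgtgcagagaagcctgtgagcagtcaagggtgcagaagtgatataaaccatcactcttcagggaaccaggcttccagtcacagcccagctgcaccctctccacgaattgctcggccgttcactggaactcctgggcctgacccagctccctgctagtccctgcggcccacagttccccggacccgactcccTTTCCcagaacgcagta
GGAAA was found in 9 of the 10 members' promoters and in 55.6% of 32851 promoters of the same length, TGANTCA, an AP-1 motif, in 1 (*Il17a*) and in 6.75%, and TATAAA in 5 and in 12.4%, each on both strands. A match is a stretch of letters and no measure of binding.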

How the data were processed

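The authors deposited counts: whole-number UMIs per gene and cell in 1 matrix per selection, without normalization. The submitters' processing notes name Cell Ranger 3.0.2 and mm10. Barcodes under 200 detected genes were dropped, 295 in the CD4/CD8-selected and 341 in the CD11c-selected matrix. Gates used raw UMIs: at least 2 of *Cd8a* and *Cd8b1*, or 1 of *Cd4*, *Foxp3* or *Trdc*, with at least 1 *Cd3* UMI and at most 2 of macrophage or epithelial markers. Macrophages needed 10 C1q UMIs. Cells in 2 gates (3 and 25) were left out. Levels were summed per gate, ratios had exact binomial intervals, and thinning used seed 1. Named genes, unless said otherwise, were the members, the fixed lists, the 3 genes of largest fold per member with at least 50 UMIs in the CD8 gate, among those with at least 20 UMIs and found in at least 10% of the cells with the member, and the 3 most alike over gates. The members and lists were chosen with earlier results of these data known. A planned test between genotypes was not run, since the matrices used here do not map cells to samples. GENCODE M21 held 30431 of the gene symbols. The code was tested on simulated data. RDS objects were not used here. A subset of the CD8 gate and a gene of the lists are not reported here. Python 3.11.15, numpy 2.4.6, scipy 1.17.1, pandas 2.3.3, and matplotlib 3.10.9 were used.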

Additional observations from a re-analysis of the deposited data

How the results depend on the processing

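Of 1227 values recomputed under other settings, 1076 stayed within the 95% counting interval of the value in the report, 149 moved outside it, and 2 that were at least 2-fold apart changed direction, both of them the *Il17a* ratio of CD8 to CD4 cells, which was recomputed after seeing the data. Its log2 value was 0.86 without run 4. *Ifng*, just under 2-fold, changed direction in run 4. Ratios between subsets, of other genes between gates, and of other genes between cells with and without a member were recomputed only by barcode run. Leaving out repeated barcodes moved 0 of 79 values. With stricter gates (2 UMIs of *Cd4*, *Foxp3* or *Trdc* and 4 of *Cd8a* and *Cd8b1*) the log2 ratio of CD8 to CD4 was -1.72 for *Il2* and -0.040 for *Il17a*. The level was 0 for *Csf1* *Foxp3*, 0 for *Csf2* *Foxp3*, 98.8 for *Ifng* *Trdc*+, 0.910 for *Il17a* CD4, 10.0 for *Il2* CD4 and 2.73 for *Il21* CD4. It was 0 for *Il21* *Trdc*+, 365 for *Ltb* CD8, 64.6 for *Tnf* CD8, 303 for *Xcl1* CD8 and 0 for *Xcl1* *Foxp3*. With at least 3 *Cd3* UMIs the log2 ratio of CD8 to CD4 was -1.85 for *Il2*. The level was 11.1 for *Il2* CD4. With 0 macrophage and epithelial UMIs in T cell gates the log2 ratio of CD8 to CD4 was -1.15 for *Ifng* and 1.17 for *Xcl1*. The level was 2.29 for *Csf1* CD8, 0 for *Csf2* *Trdc*+, 309.9 for *Ifng* CD4, 139.8 for *Ifng* CD8, 2.71 for *Il21* CD4 and 0 for *Il21* *Trdc*+. It was 349.7 for *Ltb* CD8, 282 for *Xcl1* CD8 and 336 for *Xcl1* *Trdc*+. With at least 500 genes per cell the level was 0.626 for *Il17a* CD8. With at most 10% mitochondrial UMIs the log2 ratio of CD8 to CD4 was 0.60 for *Il17a*. The level was 0.417 for *Il17a* CD4 and 0.632 for *Il17a* CD8. Without the 5% of cells with the most UMIs the level was 2.79 for *Csf1* DCs (CD11c), 4.93 for *Csf1* macrophages (CD11c), 3.58 for *Csf1* macrophages, 147 for *Ifng* CD8, 0 for *Lta* macrophages and 20.2 for *Ltb* DCs (CD11c). It was 366 for *Ltb* CD8, 234 for *Tnf* macrophages (CD11c), 68.9 for *Tnf* CD8, 237 for *Tnf* macrophages, 282 for *Xcl1* CD8 and 1.49 for *Xcl1* macrophages. As a mean over cells the log2 ratio of CD8 to CD4 was -0.80 for *Ifng*, -0.48 for *Ltb*, 1.01 for *Xcl1* and -0.098 for *Il17a*. The level was 3.33 for *Csf1* DCs (CD11c), 4.41 for *Csf1* macrophages (CD11c), 3.65 for *Csf1* CD8, 6.24 for *Csf1* macrophages, 6.93 for *Csf2* DCs (CD11c) and 171 for *Ifng* CD8. It was 2.27 for *Il17a* CD8, 23.4 for *Ltb* DCs (CD11c), 402 for *Ltb* CD8, 1283 for *Ltb* *Foxp3*, 246 for *Tnf* macrophages (CD11c) and 77.9 for *Tnf* CD8. It was 201 for *Tnf* macrophages, 250.3 for *Xcl1* CD8 and 2.15 for *Xcl1* macrophages. Without collagen cells, chosen after seeing the data, the level was 6.21 for *Csf1* macrophages. In run 1 alone, chosen after seeing the data, the log2 ratio of CD8 to CD4 was -1.25 for *Ifng*, -0.25 for *Tnf*, -2.81 for *Csf2* and 0.56 for *Xcl1*. In run 4 alone, chosen likewise, the log2 ratio of CD8 to CD4 was 0.54 for *Ifng*, -1.74 for *Lta*, -0.72 for *Ltb*, 1.71 for *Csf1*, 2.94 for *Xcl1* and -4.29 for *Il17a*. Thinned to 2000 UMIs the percent of cells with a UMI was 18.2 for *Ifng* CD8, 26.1 for *Ifng* CD4, 12.4 for *Tnf* CD8, 15.9 for *Tnf* CD4, 0.595 for *Il2* CD8 and 3.02 for *Il2* CD4. It was 0.873 for *Lta* CD8, 1.70 for *Lta* CD4, 47.1 for *Ltb* CD8, 62.4 for *Ltb* CD4, 0.617 for *Csf1* CD8 and 0.0903 for *Csf2* CD8. It was 21.9 for *Xcl1* CD8 and 12.3 for *Xcl1* CD4. With at least 2 *Ifng* UMIs the log2 ratio of *Ifng*+ to other CD8 cells was 0.82 for *Tnf* and 0.28 for *Xcl1*. With each barcode run left out in turn the log2 ratio of CD8 to CD4 ranged from -1.27 to -0.061 for *Ifng*, -0.69 to -0.57 for *Ltb*, 1.08 to 1.60 for *Xcl1* and -3.03 to 0.86 for *Il17a*. The level ranged from 3.15 to 6.37 for *Csf1* DCs (CD11c), 2.28 to 3.23 for *Csf1* CD8, 0 to 3.48 for *Csf1* *Foxp3*, 4.75 to 8.20 for *Csf1* macrophages and 0.459 to 4.47 for *Csf2* DCs (CD11c). It ranged from 0.187 to 0.501 for *Csf2* macrophages (CD11c), 0 to 1.07 for *Csf2* CD4, 2.28 to 13.7 for *Csf2* *Foxp3*, 0 to 10.1 for *Csf2* *Trdc*+ and 0 to 0.0658 for *Ifng* DCs (CD11c). It ranged from 145 to 340.1 for *Ifng* CD4, 135 to 152 for *Ifng* CD8, 0.533 to 8.68 for *Il17a* CD4, 0.475 to 1.17 for *Il17a* CD8 and 0 to 1.76 for *Il2* *Trdc*+. It ranged from 0 to 0.882 for *Il21* *Trdc*+, 16.4 to 20.1 for *Ltb* DCs (CD11c), 341 to 364 for *Ltb* CD8, 988 to 1267 for *Ltb* *Foxp3* and 211 to 361 for *Ltb* *Trdc*+. It ranged from 1.88 to 3.51 for *Ltb* macrophages, 203 to 217 for *Tnf* macrophages (CD11c), 64.0 to 70.6 for *Tnf* CD8, 164 to 190.2 for *Tnf* macrophages and 0.439 to 1.65 for *Xcl1* DCs (CD11c). It ranged from 0.276 to 1.37 for *Xcl1* macrophages (CD11c), 107 to 142 for *Xcl1* CD4, 257 to 324 for *Xcl1* CD8, 0 to 6.84 for *Xcl1* *Foxp3* and 277 to 573 for *Xcl1* *Trdc*+. It ranged from 0.300 to 1.45 for *Xcl1* macrophages. The cause was not tested. No paired analysis was possible because the matrices used here do not map cells to samples. Counts limit *Il21*, *Il17a*, *Csf2*, and the *Foxp3* and *Trdc*+ gates, where 1 cell can set a level. Free RNA and doublets were not removed.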
